A study of Caenorhabditis elegans with 6 samples.

Results

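Small RNAs bound to WAGO-4 were compared between the F3 and the F1 descendants of Caenorhabditis elegans hermaphrodites that had been exposed to double-stranded RNA (dsRNA) against oma-1. The pair makes up 2 of the 6 libraries of the study and was chosen by the generation given in the labels. F3 was 1 library and F1 was 1 library, so every difference below lacks a replicate check and is given without a p-value. Both came from animals with the genotype 3xFLAG::GFP::WAGO-4, described as young adults at 20 °C, and both were precipitated with the anti-FLAG M2 antibody. In both cases the dsRNA had been given to the P0 generation and not to the animals sampled. The library of P0 itself and that of animals of the same genotype on HT115, the bacterial strain used to feed dsRNA, are set beside the pair where they help to place a value. The growth notes of the labels differ. For F1 and F3 they describe first-stage larvae put on plates lacking food, and for F3 they add ultraviolet light at 50 mJ/cm2 on bleached embryos with 2 hours of recovery. For HT115 and P0 they mention food and embryos held at several temperatures instead. Whether these notes apply to the sequenced animals is not given, and generation and growth notes cannot be told apart.

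WAGO-4 is an Argonaute protein of the germline cytoplasm that holds secondary small interfering RNAs. RNA-dependent RNA polymerases make these RNAs on target transcripts, so they are antisense to the genes they come from, and they carry silencing on to progeny that never met the trigger. oma-1 encodes a zinc finger protein that, together with its paralog OMA-2, is needed for oocyte maturation, which makes it a common target for following inherited RNA interference. The comparison of F3 with F1 addresses what changes between generations when the trigger is gone.

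The F3 library held 10074688 gene-assigned reads, of which 7308405 were antisense, and the F1 library held 9793525, of which 5449458 were antisense. The antisense share was thus 72.5% in F3 and 55.6% in F1, and it was 77.8% on HT115 and 69.6% in P0. Levels below are antisense counts per 1000000 antisense reads of the library (CPM) unless another scale is named, and the same counts over the reads of both strands are given where that changes a statement. All ratios shift upward by 0.38 on the log2 scale when both strands are the denominator. A count of 0 allows up to 0.410 CPM in F3 and 0.551 CPM in F1. Intervals are 95% intervals for counting error only, since reads amplified by PCR without molecular identifiers are not independent molecules. All 14 germline and oocyte marker genes were measured, and their summed level was 4409 CPM in F3 and 4323 CPM in F1. The summed antisense level of the 8 intestine markers was 5.47 CPM in F3 and 6.06 CPM in F1, that of the 8 muscle markers 28.7 and 28.8 CPM in F3 and F1, and that of the 8 cuticle markers 4.10 CPM in F3 and 2.94 CPM in F1. The 10 sperm markers summed to 31.7 CPM in F3 and 31.6 CPM in F1, nearly all from the sperm channel gene spe-41, with 1 of them at 0 in F3 and 5 at 0 in F1. The 8 neuron markers summed to 97.7 CPM in F3 and 105.0 CPM in F1, of which the synaptobrevin gene snb-1 gave 71.7 and 74.3 CPM in F3 and F1. In such bulk samples fewer cells of a type and less RNA per cell cannot be told apart. The sums above count antisense small RNAs and not cells. Sense reads of the same lists differed more. Per 1000000 reads of both strands they summed, in F3 and F1, to 2077 and 3681 for germline and oocyte markers and 8004 and 17139 for intestine. They were 1744 and 1976 for muscle, 1006 and 1376 for cuticle, 42.8 and 61.2 for neuron and 37.1 and 15.3 for sperm markers.

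Over the antisense totals, levels in F3 were close to those in F1 for most genes. Of 45510 genes, 5747 reached 25 CPM in the higher of the 2 libraries and were taken as measured. Their median log2 ratio of F3 to F1 was 0.02, with quartiles at -0.09 and 0.14, and 97.4% of them lay within 1.5-fold. Over the reads of both strands the median was 0.41, 5516 of the 5747 were higher in F3, and 83.6% lay within 1.5-fold. Closeness of the 2 libraries thus holds relative to the antisense totals. At least 2-fold higher in F3 were 2 genes (0.0348% of those measured), and at least 2-fold lower were 62 genes (1.08%). With both strands as the denominator, 23 genes (0.4%) were at least 2-fold higher and 15 (0.261%) at least 2-fold lower, so the balance of the 2 directions rests on the denominator. All ratios move by the same amount, so the 15 are part of the 62. With the counts of both strands added together, 19 genes (0.331%) were at least 2-fold higher and 18 (0.313%) at least 2-fold lower. At least 4-fold, 1 gene was higher and 1 lower (0.0174% each). Of the 62 lower genes, 49 had a mean level under 50 CPM, where 1111 genes were measured. On the antisense scale the most abundant protein-coding genes were within 1.25-fold of each other in the 2 libraries. The microtubule-binding CLASP gene cls-2 had 2785 CPM in F3 and 2586 CPM in F1, the meiotic kinesin gene klp-18 had 2424 CPM in F3 and 2530 CPM in F1, and wago-4 itself had 2291 CPM in F3 and 2256 CPM in F1. So did the telomere-binding protein gene tebp-2 (2293 CPM in F3, 2431 CPM in F1) and the SET domain gene set-9 (2166 CPM in F3, 2267 CPM in F1).

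**Figure D1:**
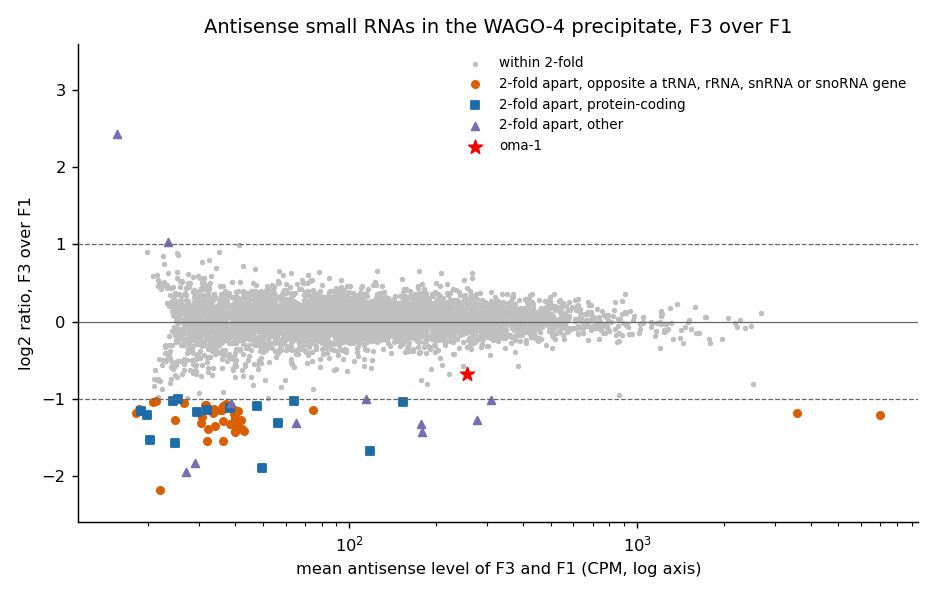
Log2 ratio of antisense CPM of F3 over F1 (vertical axis) against the mean CPM of the 2 libraries (log axis) for the 5747 measured genes, 1 point per gene; dashed lines mark 2-fold. The 38 orange points opposite a structural RNA gene and the 15 blue squares of protein-coding genes lie below the lower line, 2 genes lie above the upper line, and oma-1 lies between the lines at -0.68.

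Small RNAs against oma-1 (WBGene00003864, chromosome IV, 8888976 to 8890999, plus strand) were fewer in F3 than in F1, short of the 2-fold line. There were 1443 antisense reads in F3 (197 CPM, exact Poisson interval 187 to 208) and 1725 in F1 (317 CPM, 302 to 332). The ratio of F3 to F1 was 0.624 (exact conditional binomial interval 0.581 to 0.669), or 0.813 (0.758 to 0.873) over the reads of both strands. On either scale F3 was the lower library. Among all measured genes 93 of 5747 (1.62%) had a ratio as low or lower. Among the 5453 protein-coding genes with no structural RNA gene on the other strand it was 35 (0.642%), and among the 1438 genes within 1.5-fold of the mean level of oma-1 it was 7 (0.487%). Taken as the level above HT115, which itself had 96.5 CPM, F3 stood 101 CPM and F1 stood 220 CPM above it, so that F3 kept 45.9% of the excess of F1, or 67.4% over the reads of both strands. Relative to the excess in P0, this was 7.52% in F3 and 16.4% in F1, or 7.36% in F3 and 10.9% in F1 over the reads of both strands. Sense reads of oma-1 numbered 470 in F3 and 746 in F1, where the libraries held 2766283 sense reads in F3 and 4344067 in F1. The lower count in F3 thus goes with the smaller sense total of that library. The antisense share of its own reads was 75.4% in F3 and 69.8% in F1, beside 72.5% and 55.6% for the whole libraries.

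Of the genes related to oma-1 or next to it, the 4 that were measured had ratios with intervals that include 1 on the antisense scale. Over the reads of both strands all 4 intervals lie above 1, as the ratio of oma-2 becomes 1.40 (1.24 to 1.58), where the median log2 ratio of all measured genes is 0.41. The paralog oma-2 (chromosome V) had 92.2 CPM in F3 (85.4 to 99.5) and 86.1 CPM in F1 (78.4 to 94.2), a ratio of 1.07 (0.951 to 1.21). The zinc finger gene moe-3, another member of the family, had 5 antisense reads in F3 and 2 in F1 and was not measured. Downstream of oma-1, the ratio was 0.997 (0.899 to 1.11) for spr-2, a suppressor of presenilin related to the SET oncoprotein, 0.997 (0.860 to 1.16) for C27B7.2, and 1.06 (0.997 to 1.12) for rad-54.L2. On the other side npax-4 had 0 reads, C09G9.5 had 2 reads in F3 and 1 in F1, and C09G9.8 had 1 read in F3 and 0 in F1.

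Among protein-coding genes alone, 15 of 5492 (0.273%) were at least 2-fold lower in F3 and 0 were at least 2-fold higher. They came from several families: 3 are on the list of targets of ERGO-1, an Argonaute that starts an endogenous small interfering RNA pathway, and 2 encode F-box proteins, adaptors of ubiquitin ligases, with 1 gene in both groups. On chromosome II lay 6 of the 15, where 1001 of the 5492 measured coding genes lie, and 3 were on the X chromosome, which holds 139. As a description of genes chosen for a low F3 level, F3 was the lowest of the 4 libraries with HT115 and P0 included in 13 of the 15. Over all measured coding genes this was so in 1556 of 5492 (28.3%). In 3 of the 15 the mean of HT115 and P0 was nearer to F3 than to F1, as in 2374 of the 5492 (43.2%). Over the reads of both strands 4 of them (fbxb-37, jmjd-3.3, C40A11.10 and F49B2.3) were at least 2-fold lower.

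The F-box gene fbxb-37 (WBGene00020537, chromosome II, 2092578 to 2093876, minus strand), on the list of ERGO-1 targets, had the lowest ratio of these. HT115 was at 62.4, P0 at 54.4, F1 at 78.5 (71.3 to 86.3) and F3 at 20.9 (17.7 to 24.5) CPM, a ratio of F3 to F1 of 0.267 (0.220 to 0.321). The transposon-typed locus T16A1.9, for which the annotation used gives no position, was at 37.2 (HT115), 31.3 (P0), 42.9 (F1) and 11.1 (F3) CPM, so that F3 was again the low library and the other 3 lay close together. C40A11.10 (chromosome II, 2136552 to 2137329, minus strand), also an ERGO-1 target, followed that order too. Its levels were 30.4 (HT115), 24.5 (P0), 37.3 (F1) and 12.5 (F3) CPM, a ratio of 0.334 (0.258 to 0.430). The third such gene, E01G4.5, chosen after its values were seen, was more abundant, with HT115 at 206, P0 at 162, F1 at 206 and F3 at 100.4 CPM, a ratio of 0.487 (0.443 to 0.535).

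A different order was seen in jmjd-3.3 (WBGene00007813, chromosome X, 13436422 to 13441438, plus strand), which encodes a relative of histone H3 lysine 27 demethylases. Here F1 stood apart: HT115 was at 73.0, P0 at 77.9, F1 at 180 (169 to 192) and F3 at 56.5 (51.2 to 62.2) CPM. Its ratio of F3 to F1 was 0.314 (0.279 to 0.352), while its sense reads numbered 788 in F3 and 773 in F1. The pathogen-response family gene pals-26 on chromosome III likewise had its highest level in F1, with 16.2 (HT115), 24.9 (P0), 52.8 (F1) and 24.2 (F3) CPM. Its neighbour on the other strand, the non-coding gene srpr-1.1 (chosen after its values were seen), had 17.0, 19.7, 52.5 and 25.2 CPM in the same order. Of the planar cell polarity gene vang-1 (Van Gogh) the low libraries were P0 and F3, at 17.7 and 32.6 CPM, below HT115 and F1 at 78.9 and 80.7 CPM, a ratio of F3 to F1 of 0.403 (0.343 to 0.473). vang-1 overlaps B0410.3 on the other strand, which had 122 sense reads in F3 and 56 in F1, the opposite direction.

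In the other coding genes of this group F3 was again below F1. Named by the rule for the lowest ratios are F49B2.3 (10.4 CPM in F3, 30.3 in F1), K02B7.3 (11.9 CPM in F3, 27.7 in F1), R02D5.1 (18.2 CPM in F3, 40.9 in F1), ZK1010.10 (11.6 CPM in F3, 26.1 in F1) and srlf-31 (19.8 CPM in F3, 44.0 in F1). Outside it, and picked after their values were seen, are plr-1, unc-10 and Y110A2AL.4. plr-1, a membrane ubiquitin ligase that keeps Wnt receptors off the cell surface, had 67.9 (HT115), 60.0 (P0), 65.1 (F1) and 30.4 (F3) CPM. The active zone protein gene unc-10, known for synaptic vesicle release, had 92.1, 89.9, 86.2 and 42.1 CPM in the same order. The F-box gene fbxc-39 had 36.8, 33.0, 32.7 and 16.0 CPM, and Y110A2AL.4 had 32.6, 24.9, 33.8 and 16.8 CPM. In all 4 of these F3 was the lowest library. Just short of 2-fold lower were C01A2.1 (34.8 CPM in F3, 69.4 in F1), C44C1.1 (14.4 CPM in F3, 28.6 in F1), nipi-4 (18.2 CPM in F3, 36.2 in F1) and K04C1.2 (14.5 CPM in F3, 28.6 in F1).

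**Figure D2:**
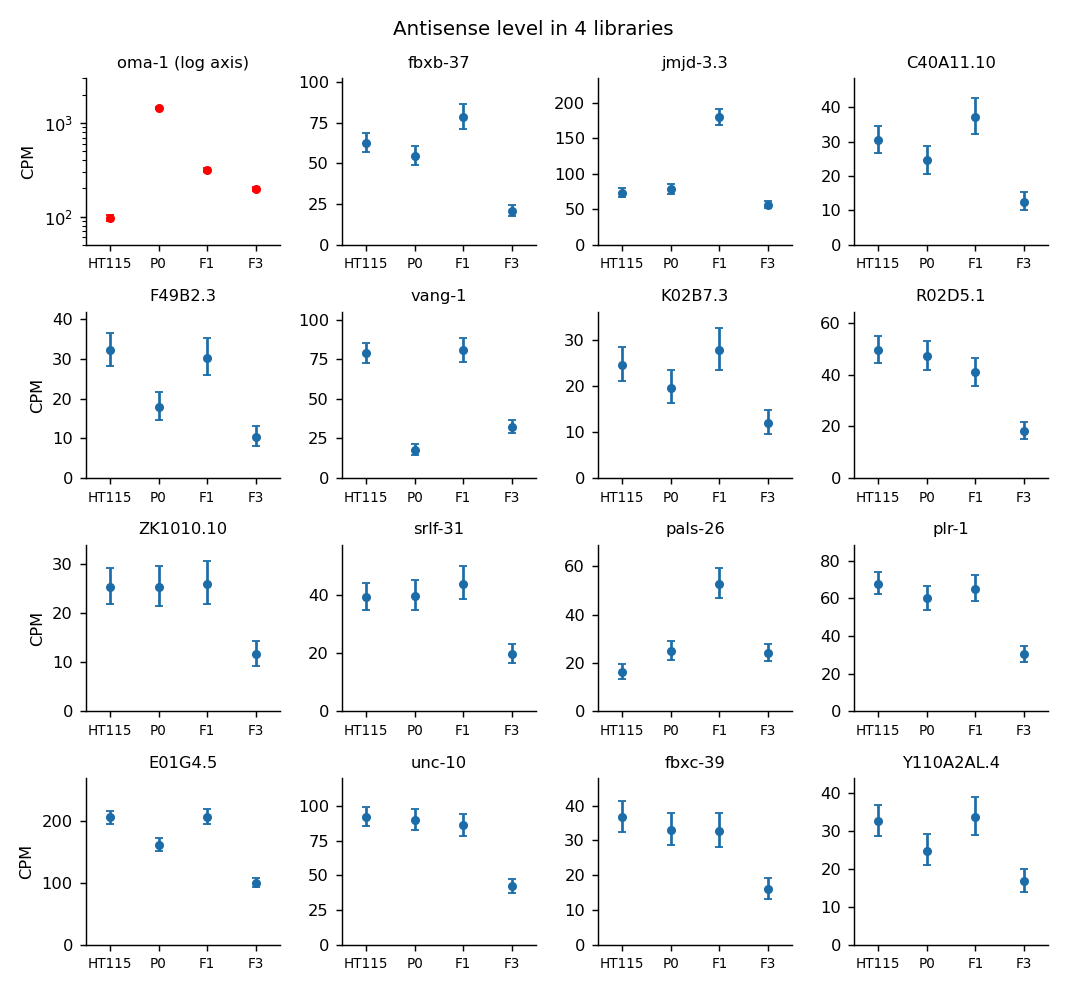
Antisense level (CPM) in the HT115, P0, F1 and F3 libraries of oma-1 (log axis) and of the 15 protein-coding genes at least 2-fold lower in F3 than in F1; points are 1 library each and bars are 95% exact Poisson intervals. F3 is the lowest of the 4 in 13 of the 15 genes, which were chosen for a low F3 level (28.3% of all measured coding genes), whereas in oma-1 P0 is highest and HT115 lowest.

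On the higher side the 2 genes past 2-fold were both non-coding. F44E7.15 (chromosome V, 5780500 to 5780645, plus strand) had 192 reads in F3 and 26 in F1 (26.3 and 4.77 CPM in F3 and F1), a ratio of 5.51 (3.64 to 8.64). It lies opposite the microRNA gene mir-253, whose sense reads numbered 371 in F3 and 66 in F1, and the protein-coding gene F44E7.5. Together these opposite genes had 599 sense reads in F3 and 267 in F1. The long intergenic RNA gene linc-59 (chromosome V, 16319028 to 16320419, minus strand) had 5.41 (HT115), 6.63 (P0), 15.4 (F1) and 31.6 (F3) CPM, a ratio of F3 to F1 of 2.05 (1.59 to 2.66), and the piRNA genes across from it had 0 sense reads. Of coding genes the nearest to the line was btb-4, a BTB domain gene, with 55.1 CPM in F3 and 27.7 CPM in F1 (ratio 1.99, 1.65 to 2.42). Behind it came C03D6.1 (25.9 CPM in F3, 13.8 in F1) and mif-2, a homolog of macrophage migration inhibitory factor (46.1 CPM in F3, 24.6 in F1). The dense core vesicle gene ida-1, which lies opposite a structural RNA gene, had 32.8 CPM in F3 and 17.6 CPM in F1. The next coding ratios were those of C01A2.6 (32.8 CPM in F3, 18.0 in F1), the F-box gene fbxa-194 (28.9 CPM in F3, 16.0 in F1), T28D6.4 (41.5 CPM in F3, 23.7 in F1), spe-47, known from spermatogenesis (38.9 CPM in F3, 22.8 in F1), T16H12.13 (28.5 CPM in F3, 16.9 in F1), F53B6.7 (53.2 CPM in F3, 32.3 in F1) and Y73B6BL.14 (42.7 CPM in F3, 26.2 in F1). Over the reads of both strands these 11 genes were all at least 2-fold higher, among 20 coding genes of the 23.

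Most of the 62 lower genes were not protein-coding: 42 were typed as non-coding RNA, 2 as ribosomal RNA (rRNA), 1 as small nucleolar RNA (snoRNA), 1 as transposon and 1 as long intergenic RNA. By position, 38 of the 62 (61.3%) lie across from genes of structural RNAs: 21 from a transfer RNA (tRNA) gene, 10 from a small nuclear RNA (snRNA) gene, 5 from a snoRNA gene and 2 from an rRNA gene. Of all 5747 measured genes 108 (1.88%) do so. Over the reads of both strands 8 of the 38 were still at least 2-fold lower. Their summed levels were dominated by the 2 rRNA-typed genes. F31C3.14 on chromosome I, opposite rrn-3.1, had 30811 antisense reads in F3 and 53196 in F1 (4216 and 9762 CPM in F3 and F1), and F31C3.15, opposite rrn-1.1, had 16040 in F3 and 27278 in F1. Their neighbours F31C3.16 and F31C3.13 were also lower in F3 but within 2-fold, at ratios of 0.569 (0.556 to 0.582) and 0.515 (0.495 to 0.536).

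The sense reads of the gene on the other strand were, in the median, close in number to the antisense reads of these 38 genes, and those of the rRNA genes were more numerous. The ratio of the opposite gene's sense reads to the antisense reads of the listed gene had a median of 0.853 in F3 and 0.849 in F1. M02F4.12 on the X chromosome had 171 antisense reads in F3 and 340 in F1, beside 166 sense reads in F3 and 256 in F1 for the tRNA gene across from it. ZK622.6 on chromosome II, opposite the tRNA gene rte-4, had 136 reads in F3 and 296 in F1, beside 157 sense reads in F3 and 270 in F1. F10D2.15 on chromosome V, opposite a snRNA gene and ugt-37, had 16.3 CPM in F3 and 47.7 CPM in F1, beside 93 sense reads in F3 and 198 in F1. Per reads of both strands the median log2 ratio of F3 to F1 was -0.82 for the antisense reads and -0.81 for the sense reads across from them, and 36 of the 38 opposite genes were lower in F3. Sense reads were lower in F3 for 2930 of the 3079 genes measured on the sense strand, with a median of -0.79 on this scale, so neither value sets the opposite genes apart from other sense reads. The exceptions, singled out for that reason, were Y54G2A.70 (58 reads in F3 and 197 in F1, beside 37 and 34 sense reads in F3 and F1) and K01A11.6 (99 reads in F3 and 153 in F1, beside 16 and 15). Y54G2A.70 was also the gene past 4-fold lower, at a ratio of 0.220 (0.161 to 0.296). The part of the opposite sense reads in these antisense values was not tested. tRNA, snRNA and rRNA genes have near-identical copies, and how reads were divided among them is not given in the sources used here, so single values in this group are uncertain.

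**Figure D3:**
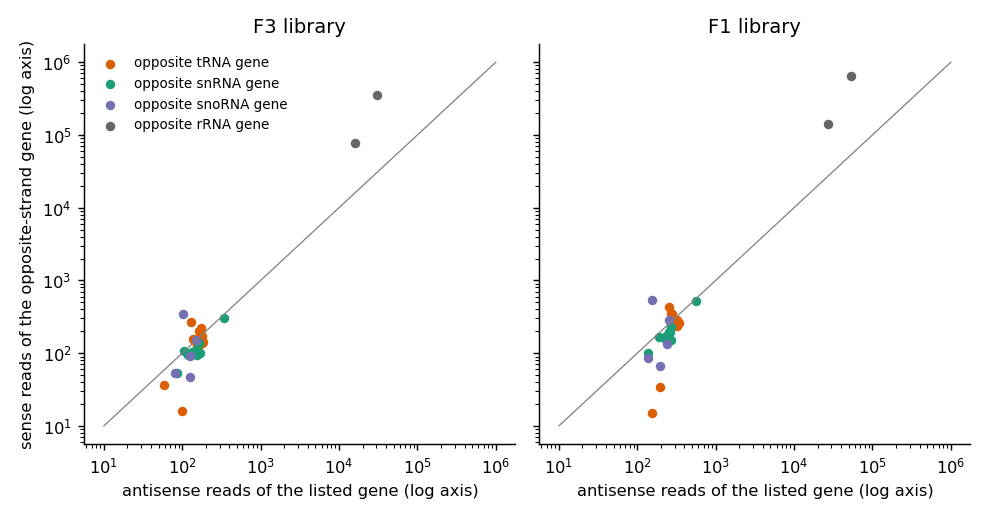
Antisense reads of each of the 38 genes at least 2-fold lower in F3 that lie opposite a structural RNA gene (horizontal, log axis) against the sense reads of the genes across from it (vertical, log axis), in the F3 library (left) and the F1 library (right); the line marks equal counts. Most points of both libraries lie near the line, with a median ratio of 0.853 in F3 and 0.849 in F1, and the 2 rRNA points lie above it.

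In all 38 genes, which were chosen for a higher level in F1 than in F3, F1 had the highest level of the 4 libraries, and in 37 the mean of HT115 and P0 was nearer to F3. Over all 108 measured genes opposite a structural RNA gene, F1 was highest in 76 and HT115 and P0 were nearer to F3 in 80 (74.1%). Over all 5747 measured genes these shares were 17.4% and 44.0%. The 108 are not free of selection either, because a gene is measured by the higher of F3 and F1. The 21 lower genes opposite tRNA genes had 7.94 to 25.5 CPM in F3 and 28.1 to 62.4 CPM in F1, so many entered through F1 alone. How much of the share this filter accounts for was not tested. The median level of the 21 genes opposite tRNA genes was 12.3 (HT115), 25.5 (P0), 55.1 (F1) and 22.9 (F3) CPM. That of the 10 opposite snRNA genes was 13.7, 25.9, 44.9 and 20.3 CPM, and that of the 5 opposite snoRNA genes 9.47, 21.2, 36.0 and 17.2 CPM. The coding genes described above had medians of 39.4, 33.0, 44.0 and 19.8 CPM, with F3 the low library instead.

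Of the other non-coding genes at least 2-fold lower in F3, some lie opposite yolk protein and histone genes. T27A10.8 had 707 reads in F3 and 1427 in F1 (96.7 and 262 CPM in F3 and F1) and lies opposite vit-3, a yolk protein gene with 13767 sense reads in F3 and 27763 in F1. F59D8.3, opposite the yolk protein gene vit-4, had 735 reads in F3 and 1381 in F1, and vit-4 had 14370 sense reads in F3 and 29059 in F1. ZK131.14, opposite the histone gene his-16, had 93 reads in F3 and 247 in F1, and his-16 had 246 sense reads in F3 and 592 in F1. K06C4.23, opposite his-20, had 1186 reads in F3 and 2136 in F1, and the genes across from it had 293 sense reads in F3 and 567 in F1. F55G1.20 lies opposite yrn-1, a Y RNA gene by name that was typed as protein-coding. F55G1.20 had 273 reads in F3 and 505 in F1, and yrn-1 had 133 sense reads in F3 and 175 in F1. The snoRNA-typed K07C10.2 had 1497 reads in F3 and 2261 in F1, across from K07C10.6 with 1555 sense reads in F3 and 2256 in F1. F59D8.3, K06C4.23, F55G1.20 and K07C10.2 were picked after their values were seen. Over the reads of both strands these were less than 2-fold lower, at log2 ratios of -0.95, -0.89, -0.93 and -0.64. T27A10.8 and ZK131.14 stayed past 2-fold lower on that scale, at -1.05 and -1.45. Leaving out every gene whose opposite-strand genes held sense reads of at least 10% of its antisense reads, an alternative chosen after seeing the data, left 4980 measured genes, of which 17 were lower and 1 was higher.

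Lists of the germline and small RNA machinery had medians near 0. No measured member passed 2-fold, as did 1.08% of all measured genes and 0.273% of coding genes on the lower side, among 22 P granule and Z granule genes (median log2 ratio -0.03), 12 Argonautes (-0.01), 25 RNA-dependent RNA polymerase, mutator and Dicer complex genes (0.02) and 20 nuclear RNA interference and histone H3 lysine 9 methylation genes (0.02). Of individual members, the double-stranded RNA channel gene sid-1 had 1696 CPM in F3 and 1491 CPM in F1, the piRNA-binding Argonaute gene prg-1 had 1753 CPM in F3 and 1689 CPM in F1, and csr-1 had 1218 CPM in F3 and 1311 CPM in F1. The nuclear Argonaute gene hrde-1 had 913 CPM in F3 and 852 CPM in F1, the Z granule helicase gene znfx-1 had 883 CPM in F3 and 866 CPM in F1, and the polymerase gene ego-1 had 552 CPM in F3 and 557 CPM in F1. The largest ratios in these lists were small, as in rde-11 (542 CPM in F3, 450 in F1), which acts in amplification, and the Z granule gene pid-2 (1299 CPM in F3, 1507 in F1).

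Genes of oocytes, meiosis and cell division also had medians near 0. Of 36 oocyte and early embryo regulators, 38 meiosis and synapsis genes, 60 spindle, kinetochore and centrosome genes and 8 replication genes, 0 passed 2-fold. Of all measured coding genes 0.273% were at least 2-fold lower and 0 higher, so the 0 is near the background. The list medians were 0.03, -0.00, -0.06 and 0.00 in that order. In the spindle list 41 of 60 lay below the median of all measured genes, within a range of -0.37 to 0.25. The eggshell proteoglycan gene cpg-2 had 62.1 CPM in F3 and 46.8 CPM in F1, the chromosomal passenger gene csc-1 had 85.1 CPM in F3 and 110 CPM in F1, and the crossover regulator zhp-1 had 38.6 CPM in F3 and 27.2 CPM in F1. The 14 germline and oocyte markers had a median of 0.04. Among the 12 genes taken as a fixed reference, gld-1 had 346 CPM in F3 and 337 CPM in F1, pgl-1 had 872 CPM in F3 and 849 CPM in F1, and mex-5 had 129.9 CPM in F3 and 133 CPM in F1. The member of this set below 25 CPM was efl-3, with 10.5 CPM in F3 and 15.0 CPM in F1.

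Lists for conditions in the growth notes, ultraviolet light and lack of food, had 0 members past 2-fold, where 1.08% of all measured genes were lower, so the 0 is near the background. The medians were 0.04 for 42 DNA damage and repair genes, 0.03 for 14 insulin signalling and starvation genes, and -0.02 for 15 heat shock and stress genes. The highest ratio of the repair list was that of ercc-1, an endonuclease subunit of nucleotide excision repair, with 201 CPM in F3 and 146 CPM in F1 (ratio 1.38, 1.27 to 1.51). The DNA damage kinase gene atm-1 had 643 CPM in F3 and 650 CPM in F1, the insulin receptor gene daf-2 had 529 CPM in F3 and 538 CPM in F1, and the heat shock factor gene hsf-1 had 1069 CPM in F3 and 1024 CPM in F1. None of the 8 small heat shock genes was measured. The 23 synthetic multivulva genes had a median of 0.05.

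**Figure D4:**
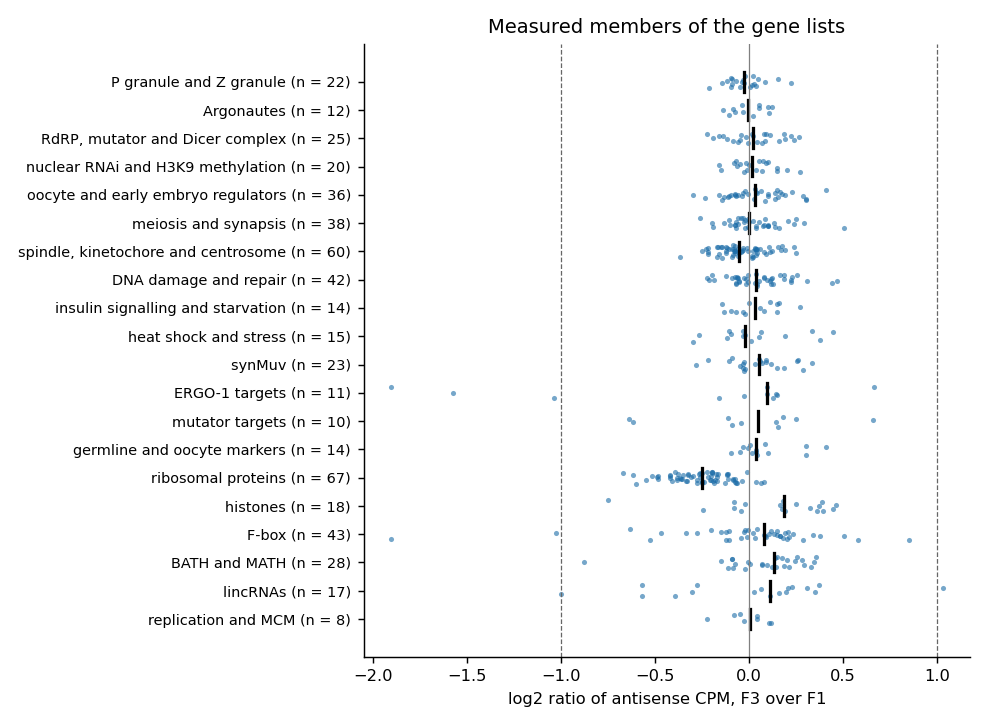
Log2 ratio of antisense CPM of F3 over F1 for each measured member of the lists with at least 8 such members, 1 point per gene; vertical ticks are list medians and dashed lines mark 2-fold. Germline lists centre near 0, ribosomal protein genes lie mostly below 0 with a median of -0.25 on this scale (14 of 67 below 0 over the reads of both strands), and the 3 points past -1 among ERGO-1 targets are fbxb-37, C40A11.10 and E01G4.5.

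Targets of endogenous small RNA pathways came next. Of 11 measured ERGO-1 targets, 3 were at least 2-fold lower (1.08% of all measured genes and 0.273% of coding genes were), and the range ran from -1.90 to 0.66, while the median was 0.09. Its low end is held by fbxb-37, C40A11.10 and E01G4.5. Near its high end, and chosen after its values were seen, C36A4.11 had 214 CPM in F3 and 135 CPM in F1, a ratio of 1.58 (1.45 to 1.73). The most abundant, C44B11.6 and T16G12.4, had 268 and 233 CPM in F3 against 251 and 211 CPM in F1. Among 10 mutator targets, genes whose small RNAs depend on the mutator complex, 0 passed 2-fold and the median was 0.05. Their ends were K06B9.6 (153 CPM in F3, 96.7 in F1) and F07B7.2 (561 reads in F3, 651 in F1, a ratio of 0.643), and their most abundant member, F15D4.5, had 1192 CPM in F3 and 1291 CPM in F1.

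Ribosomal protein genes were lower in F3 as a family but none reached 2-fold, as did 0.273% of measured coding genes on the lower side. Of 67 measured genes 64 lay below 0 and 64 below the median of all measured genes, with a median log2 ratio of -0.25. The family took 1.12% of antisense reads in F3 and 1.33% in F1, and 1.25% on HT115 and 1.08% in P0. rpl-34 had 1061 CPM in F3 and 1340 CPM in F1, rpl-13A had 794 CPM in F3 and 899 CPM in F1, and the lowest ratios were those of rpl-32 (171 CPM in F3, 273 in F1) and rps-19 (38.0 CPM in F3, 58.4 in F1). Over the reads of both strands 14 of the 67 lay below 0, so their direction is one relative to other genes. Sense reads of ribosomal protein genes were 1.12% of all reads in F3 and 1.48% in F1, but 4.07% of sense reads in F3 and 3.33% in F1. Their part in the antisense values was not tested.

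The remaining families had medians nearer to that of all genes, on the antisense scale. Histone genes had a median of 0.18 over 18 measured members, or 0.16 above all measured genes, but -0.80 relative to all genes when both strands were counted. On the antisense scale their log2 ratios ran from -0.75 for his-25 (38.0 CPM in F3, 64.0 in F1) to 0.46 for his-56 (272 reads in F3, 147 in F1). Their near-identical copies make single values uncertain. Of 43 F-box genes 2 were at least 2-fold lower (fbxb-37 and fbxc-39), beside 1.08% of all measured genes, and the median was 0.08, and of 28 BATH and MATH domain genes 0 passed 2-fold, with a median of 0.13 and bath-31 lowest (15.7 CPM in F3, 29.0 in F1). The 17 long intergenic RNA genes had a median of 0.11 and 1 member past 2-fold on each side (0.0348% of all measured genes were higher and 1.08% lower). These were linc-59 and linc-16. linc-16 had 247 (HT115), 226 (P0), 153 (F1) and 76.4 (F3) CPM, a ratio of F3 to F1 of 0.499 (0.448 to 0.557). linc-17, chosen after its values were seen, had 246, 212, 48.4 and 32.6 CPM in the same order, so both generations were below HT115 and P0. The 111 measured transposon-typed loci had a median of 0.18, and 90 of them lay above the median of all measured genes. They took 1.66% of antisense reads in F3 and 1.51% in F1, beside 1.55% on HT115 and 1.54% in P0. The quartiles of 139 X-linked coding genes were -0.35 and 0.13, and those of 5312 autosomal coding genes -0.08 and 0.14. The medians were -0.06 on the X chromosome and 0.03 on autosomes. Of the 4 measured cuticle collagens 0 passed 2-fold (median 0.12), the 1 measured chemoreceptor, srt-43, had 173 CPM in F3 and 159 CPM in F1, and 0 vitellogenin and 0 major sperm protein genes were measured.

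Sense reads made up less of the F3 library than of the F1 library, so their ratios depend on the denominator. Of 3079 genes with at least 25 sense CPM, here per reads of both strands, in the higher library, 721 (23.4%) were at least 2-fold lower in F3 and 12 (0.39%) at least 2-fold higher, with a median log2 ratio of -0.79. Over the sense total alone, a scale added after seeing the data, 25 of these genes (0.812%) were at least 2-fold lower and 77 (2.5%) at least 2-fold higher, with a median of -0.10. Sense reads of protein-coding genes made up 19.3% of all reads in F3 and 31.4% in F1, but 70.4% of sense reads in F3 and 70.8% in F1. tRNA took 0.0977% of all reads in F3 and 0.126% in F1, but 0.356% of sense reads in F3 and 0.285% in F1, so the direction of its sum turns. That of the median gene does not. All 20 tRNA genes measured on the sense strand were lower in F3 over the reads of both strands, and their median log2 ratio over the sense total was -0.18.

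Of the classes named here, rRNA, yolk protein (vitellogenin) and histone genes took a smaller summed share in F3 on both scales. So did protein-coding genes as a whole, though narrowly over sense reads (70.4% in F3, 70.8% in F1). rRNA took 5.19% of all reads in F3 and 9.69% in F1, or 18.9% of sense reads in F3 and 21.8% in F1. For rRNA this holds for the sum and not for most genes. Of 18 rRNA genes measured on the sense strand, 15 were higher and 3 lower in F3 over the reads of both strands. Their median log2 ratio was 0.25 on that scale and 0.94 over the sense total. The abundant rrn-3.1 had 354635 sense reads in F3 and 652257 in F1. Vitellogenins took 1.15% of all reads in F3 and 2.44% in F1, or 4.19% of sense reads in F3 and 5.49% in F1. Histones took 0.348% of all reads in F3 and 0.791% in F1, or 1.27% of sense reads in F3 and 1.78% in F1. On HT115 vitellogenins were at 1.16% of all reads and 5.21% of sense reads, and histones at 0.361% and 1.63%, so F3 lay near HT115 on the first scale and below it on the second.

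MicroRNAs, piRNAs and sperm transcripts were higher in F3 on both scales. MicroRNAs took 0.697% of all reads in F3 and 0.507% in F1, a ratio of 1.38, or 2.22 over sense reads. Over the reads of both strands 31 of 39 measured microRNA genes were higher in F3, 6 of them at least 2-fold. piRNAs, the germline RNAs bound by PRG-1, took 0.0358% of all reads in F3 and 0.0136% in F1, a ratio of 2.63 (2.47 to 2.80), with 0.0330% on HT115 and 0.0156% in P0. Major sperm protein genes had 1364 sense reads in F3 and 337 in F1, a ratio of 3.93 (3.49 to 4.45), and F3 was the highest of the 4 libraries. How far sense reads in a precipitate of WAGO-4 stand for bound RNA was not tested, since no input library was used here.

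**Figure D5:**
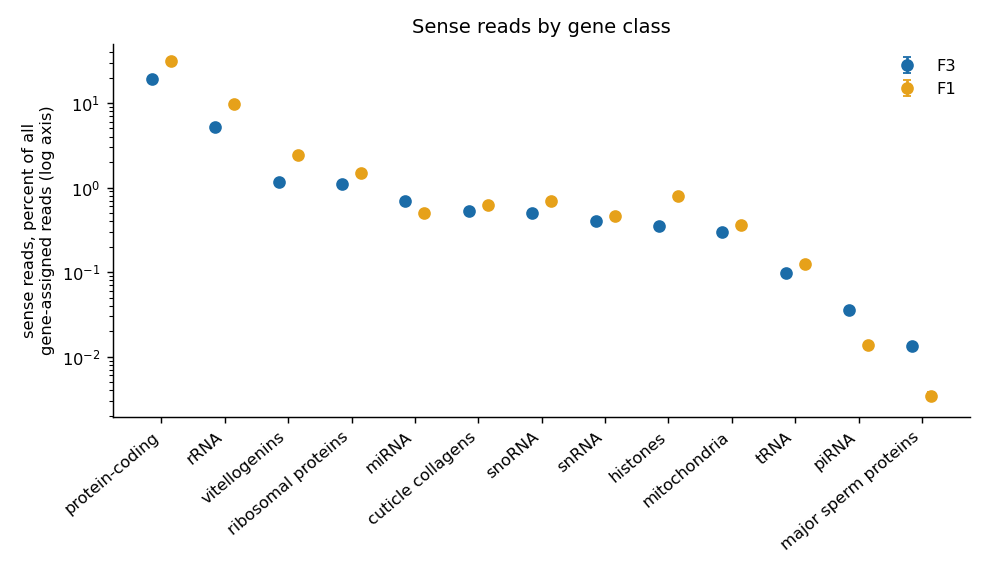
Sense reads of 13 gene classes as a percentage of all gene-assigned reads (log axis) in the F3 library (blue, left of each pair) and the F1 library (orange, right); 95% Wilson intervals are narrower than the points. On this scale, which carries the smaller sense share of the F3 library, protein-coding, rRNA, vitellogenin and histone classes are lower in F3, and microRNA, piRNA and major sperm protein classes are higher in F3.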

How the data were processed

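Small RNAs of 17 to 30 nucleotides from WAGO-4 precipitates were sequenced on an Illumina HiSeq, per the labels' protocols. The deposited tables hold whole-number read counts per annotated transcript, with 1 sense and 1 antisense column, both unnamed. Which is which was read from microRNA genes, whose reads were 0.202% antisense in F3 and 0.207% in F1. The submitters' processing notes name Bowtie2 as aligner. Its version, the build, the annotation and the counter were not given in the sources used here. Positions and overlaps come from Ensembl release 115 on WBcel235, where 44852 of the 45510 genes were found, and symbols for 44176 genes from the RefSeq gene table. In each library 3 lines without a gene (26 reads in F3, 29 in F1) were left out.

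The counts of all transcripts of a gene were summed and scaled by the library's antisense total. For log2 ratios 0.5 was added to the counts. A gene counted as measured at 25 CPM in the higher library, and 2-fold marked a difference. Poisson, binomial and Wilson intervals came from scipy 1.17.1, and TMM scaling, an alternative only, from edgeR 4.0.16. The ratio and its interval were tested on simulated data. The simulated counts were independent Poisson draws, as the interval assumes, so they cannot show error from PCR copies. The named genes were oma-1 with its relatives and 3 coding neighbours on each side, 12 reference genes, the 12 highest and lowest ratios, the 10 highest and lowest among coding genes, the 8 most abundant genes, 2 most abundant and 2 most distant members per list, and 5 sense genes each way. Gene lists, 31 in all, were written from general knowledge. The members and the lists were chosen with earlier results of these data known. Of their entries 7 matched no gene.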

Additional observations from a re-analysis of the deposited data

How the results depend on the processing

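With 1 library per generation there is no estimate of the spread between animals or preparations, and no replicate could be left out. No paired analysis was possible because each generation has 1 library. The sign of the oma-1 ratio and of each named gene called at 2-fold did not change in any setting run. The balance of higher and lower genes did, and so did the sign, relative to all genes, of some list medians. The count of genes at least 2-fold higher in F3 than in F1 was 2, and became 23 with antisense counts over the reads of both strands, 19 with both strands counted, 1 with 5 added to each count, 10 at a minimum of 10 CPM, 0 at 100 CPM, 4197 with no minimum, 0 for protein-coding genes and 1 without genes opposite sense reads. That of genes at least 2-fold lower in F3 than in F1 was 62, and became 15, 18, 95, 10 and 3399 under the both-strand denominator, both strands counted, minimum 10 CPM, minimum 100 CPM and no minimum. It was 15 for protein-coding genes, 24 without genes opposite a structural RNA gene and 17 without genes opposite sense reads. That of genes at least 4-fold higher in F3 than in F1 was 1, and became 0 at 100 CPM, 604 with no minimum, 0 for protein-coding genes and 0 without genes opposite sense reads. That of genes at least 4-fold lower in F3 than in F1 was 1, and became 3 at 10 CPM, 2246 with no minimum and 2 with the highest transcript of each gene, and it was 0 over both strands on either scale, at 100 CPM, for protein-coding genes, without genes opposite a structural RNA gene and without genes opposite sense reads. The oma-1 log2 ratio of -0.68 became -0.30 over the reads of both strands and -0.41 with both strands counted, and was within its interval in the other settings run. Of the gene lists 3 had a median at least 0.1 from that of all genes, against 11 with both strands counted and 13 with no minimum. Of the named genes 24 were at least 2-fold apart, against 5 at 100 CPM, 11 for protein-coding genes and 13 without genes opposite sense reads. With both strands counted, the medians relative to all genes became -0.80 for histones, -0.42 for germline and oocyte markers and -0.34 for oocyte and early embryo regulators, each above 0 as reported, and with no minimum they became -0.29 for long intergenic RNAs and -0.19 for F-box genes. Genes with sense reads at least 2-fold higher in F3 than in F1 numbered 12 over the reads of both strands and 77 over the sense total, and those at least 2-fold lower 721 and 25. The cause of a changed count was not tested where the setting does not itself remove genes or add low ones. Depth limits genes under 25 CPM, and 4 other settings (TMM, median-of-ratios, equal depth by thinning, and totals that omit the top genes) kept the counts at 2-fold within 1.5 times of those reported.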

Other observations

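Single genes of the sense strand are described here, chosen after their values were seen from the extremes of that strand. Levels are sense counts per 1000000 gene-assigned reads of both strands (sense CPM), and the ratios carry counting intervals only. Over the sense total alone each ratio is higher by the same factor, which turns a direction where stated. The 10 lowest ratios of F3 to F1 belonged to genes of several kinds. The cuticle collagen gene dpy-17 had 49 sense reads in F3 and 587 in F1, a ratio of 0.0811 (0.0593 to 0.109), and HT115 and P0 had 242 and 299. The collagen gene dpy-14 had 80 reads in F3 and 666 in F1, and dpy-10 had 45 reads in F3 and 265 in F1. The genes noah-1 and noah-2 of the apical extracellular matrix had 184 and 138 reads in F3 against 782 and 549 in F1. hbl-1, a transcription factor of larval timing that let-7 family microRNAs repress, had 26 reads in F3 and 288 in F1 (ratio 0.0878, 0.0564 to 0.131). The C-type lectin gene clec-78 had 45 reads in F3 and 401 in F1, the neurexin-like gene nlr-1 had 41 reads in F3 and 248 in F1, F53B3.5 had 60 reads in F3 and 302 in F1, and Y47G6A.31 had 64 reads in F3 and 251 in F1. Over the sense total the ratio was 0.131 for dpy-17 and 0.395 for noah-2. In all 10 genes F3 was, over the reads of both strands, the lowest of the 4 libraries and F1 the highest. Antisense reads of hbl-1 numbered 17 in F3 and 14 in F1, and those of dpy-17 numbered 3 in F3 and 6 in F1. Neither hbl-1 nor dpy-17 was thus among the measured antisense targets, whereas Y47G6A.31 was, with 377 antisense reads in F3 and 214 in F1.

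Of 32 genes of the cuticle collagen list measured on the sense strand 12 were higher and 20 lower in F3. Their median log2 ratio was -0.26 over the reads of both strands and 0.43 over the sense total. The list does not hold the collagen genes dpy-17, dpy-14 and dpy-10 named above. Those had log2 ratios of -3.61, -3.09 and -2.59 over the reads of both strands, below the list minimum of -1.46. The 4 list members at least 2-fold higher over the reads of both strands are given here. col-81 had 6.32 (HT115), 6.69 (P0), 54.9 (F1) and 152 (F3) sense CPM, a ratio of F3 to F1 of 2.77 (2.51 to 3.07). The collagens col-129 (72.3 sense CPM in F3, 30.0 in F1), col-139 (65.9 in F3, 28.5 in F1) and col-73 (27.9 in F3, 12.2 in F1) also had both generations above HT115 and P0. let-7, a microRNA of the larval to adult transition, had 98.1 sense CPM in F3 and 41.3 in F1, a ratio of 2.38 (2.12 to 2.68), and its family member mir-48 had 515 in F3 and 334 in F1. mir-80 and mir-81, of the mir-58 family, had 271 and 527 sense CPM in F3 against 123 and 248 in F1, and mir-82 had 591 in F3 and 390 in F1. mir-253 had the highest ratio, 5.46 (4.20 to 7.21), with 36.8 sense CPM in F3 and 6.74 in F1. The embryonic microRNA mir-35 had 499 sense CPM in F3 and 671 in F1, a ratio of 0.743, but 1.20 over the sense total. Near-identical relatives of some of these genes make single values uncertain.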
